A study of Mus musculus with 605 samples.

Results

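The cells described here are bulge stem cells, the keratinocyte stem cells of the hair follicle, from nevus-bearing skin, split by whether they carried the transcript of Fos. They came from 1 plate of mutant mice at postnatal day 56 (P56), on which 94 single cells are labelled, out of 605 labelled cells in the series. Of these, 89 cells passed the limits of the study on total, mitochondrial share and number of genes. A cell was called Fos-positive when Fos reached 1 TPM, a unit that scales the transcripts of each cell to a fixed sum, which gave 58 Fos-positive and 31 Fos-negative cells. The question was whether genes that set mutant apart from wild-type bulge cells, Gjb2, Ucp2, Gnmt, Krt14, Lgals3 and the MHC class I genes, went with Fos within this plate.

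The mutant mice carry activated Nras under the tyrosinase (Tyr) promoter, which acts in melanocytes and not in the bulge cells measured here, and are a model of congenital melanocytic nevi. Both they and the wild-type controls carry the K14-H2B-GFP reporter, a nuclear green protein under the keratin 14 promoter, and bulge cells were sorted from dorsal skin as GFP+, CD34+ and P-cadherin low. The controls are 1 plate of wild-type cells at P56, when follicles rest in telogen, and 1 plate at P30, when they grow in anagen. No label names an animal, so each plate is 1 sample, the cells of a plate are not replicates, and no test was made. All SDs are over cells.

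Fos is a subunit of AP-1, a family of paired transcription factors made of Fos, Jun and Atf proteins. Its gene is one of the immediate early genes, which are transcribed within minutes of a signal without new protein synthesis and are soon silenced by their own products. In skin they answer growth factors, wounding and mechanical strain, and they are also switched on when tissue is taken apart with enzymes to free single cells. The skin here was digested with dispase and collagenase before the sort.

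The promoters of 3 immediate early genes are shown beside those of 2 connexin genes that were lower in Fos-positive cells. Of the 3, Dusp1 and Zfp36 were higher in those cells, while Fos made the classes, so its level there was set by the rule. Each line gives the 250 bases before the RefSeq transcription start, 5′ to 3′ on the strand of the gene (build GRCm38.p6). Capitals mark matches to the motifs searched, which were the AP-1 site (TGACTCA or TGAGTCA), the core of the cyclic AMP response element (TGACGT or ACGTCA), the CArG box bound by serum response factor, and TATAAA on the strand of the gene. Which promoters to print was decided after their motifs were seen.
Fos: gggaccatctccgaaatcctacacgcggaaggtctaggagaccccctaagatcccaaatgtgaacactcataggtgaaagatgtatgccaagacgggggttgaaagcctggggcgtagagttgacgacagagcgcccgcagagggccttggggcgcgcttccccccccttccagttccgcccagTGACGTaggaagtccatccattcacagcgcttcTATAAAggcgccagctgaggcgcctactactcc
Dusp1: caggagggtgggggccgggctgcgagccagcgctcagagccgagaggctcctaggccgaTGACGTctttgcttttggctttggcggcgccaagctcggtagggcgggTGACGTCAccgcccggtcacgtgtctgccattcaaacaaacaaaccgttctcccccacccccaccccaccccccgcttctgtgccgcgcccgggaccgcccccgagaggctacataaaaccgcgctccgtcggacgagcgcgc
Zfp36: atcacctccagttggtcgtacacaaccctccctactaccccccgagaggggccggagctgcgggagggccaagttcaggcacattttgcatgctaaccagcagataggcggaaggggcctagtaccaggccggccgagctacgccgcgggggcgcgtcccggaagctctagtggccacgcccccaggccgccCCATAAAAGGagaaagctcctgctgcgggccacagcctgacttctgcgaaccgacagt
Gjb2: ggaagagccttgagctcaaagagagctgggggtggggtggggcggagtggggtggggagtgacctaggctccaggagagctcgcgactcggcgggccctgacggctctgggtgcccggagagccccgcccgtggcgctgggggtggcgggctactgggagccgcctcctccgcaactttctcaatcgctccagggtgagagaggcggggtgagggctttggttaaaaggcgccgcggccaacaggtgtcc
Gja1: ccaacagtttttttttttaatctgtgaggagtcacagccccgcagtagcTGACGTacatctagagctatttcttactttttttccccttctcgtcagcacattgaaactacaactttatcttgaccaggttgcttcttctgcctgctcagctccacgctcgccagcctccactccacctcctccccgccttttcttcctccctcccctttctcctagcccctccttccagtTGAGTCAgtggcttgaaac

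The Fos promoter (chr12:85473640-85473889, plus strand) holds the cyclic AMP response element core from base -66 and TATAAA from base -33, counted from the start site. That of Dusp1 (chr17:26508473-26508722, minus strand) holds the core from bases -191 and -143, the second as the full palindrome, whose other strand gives an overlapping match from -141. That of Zfp36 (chr7:28379229-28379478, minus strand) holds a CArG box from base -58. The Gjb2 promoter (chr14:57104703-57104952, minus strand) holds no match to these letters, and the Gja1 promoter (chr10:56377050-56377299, plus strand) holds an AP-1 site from base -19 and the core from base -201. The core was found in 8 of 32 promoters of immediate early genes (25%), Fos among them, and in 6.56% of 27025 promoters of the table. It was not particular to that list, with 3 of 9 promoters of MHC class I chains (33.3%). Of the genes higher in mutant than in wild-type cells 1 of 11 held it, and of those lower 0 of 4. The AP-1 site was found in 0 of those 32, in 1 of 11 promoters of the genes higher in mutant than in wild-type cells, and in 4.43% of all. These matches describe the letters only.

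Fos-positive and Fos-negative cells were alike in the technical measures of a cell, but not identical. TPM keeps no sequencing depth, so depth is unknown, and the number of genes above 0 stands in for it. That number ran from 2596 to 6670 with a median of 4501.5 in Fos-positive cells, and from 2823 to 6237 with a median of 4158 in Fos-negative cells. The median mitochondrial share was 6.22% and 7.89%. Of the wells in rows A to D, 30 held Fos-positive and 15 Fos-negative cells, and of those in rows E to H, 28 and 16, but row A alone held 10 and 1. Keratinocyte markers were the leading set in 57 of 58 and 30 of 31 cells, while the T or NK cell markers Cd3e, Cd3g, Cd3d and Nkg7 were at 0 in every cell. Myeloid markers led in 1 Fos-positive cell and sebaceous markers in 1 Fos-negative cell, and both cells were kept. The highest sums were 2430 and 969 TPM for fibroblast markers and 4744 and 3298 TPM for smooth muscle or pericyte markers. Melanocyte markers summed to a median of 0 TPM in both classes, with 260.0 and 230 TPM in the highest cells, and myeloid markers to a median of 0 with 1390 and 459 TPM in the highest.

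Fos itself, which made the classes, is given as a description. The gene lies on chromosome 12 (chr12:85473890-85477273, plus strand). It ran from 1.32 to 12922 TPM with a median of 362 in the Fos-positive cells, and 24 of the 31 Fos-negative cells were at 0. The Fos-negative cells nearest the limit were at 0.84, 0.80 and 0.74 TPM, and the Fos-positive cells nearest to it at 1.32, 1.66, 4.91 and 5.85 TPM. Few cells thus lay near the limit, and the spread within the Fos-positive class was far wider than the gap at it. In 19 of the 58 cells Fos reached 1000 TPM.

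**Figure D1:**
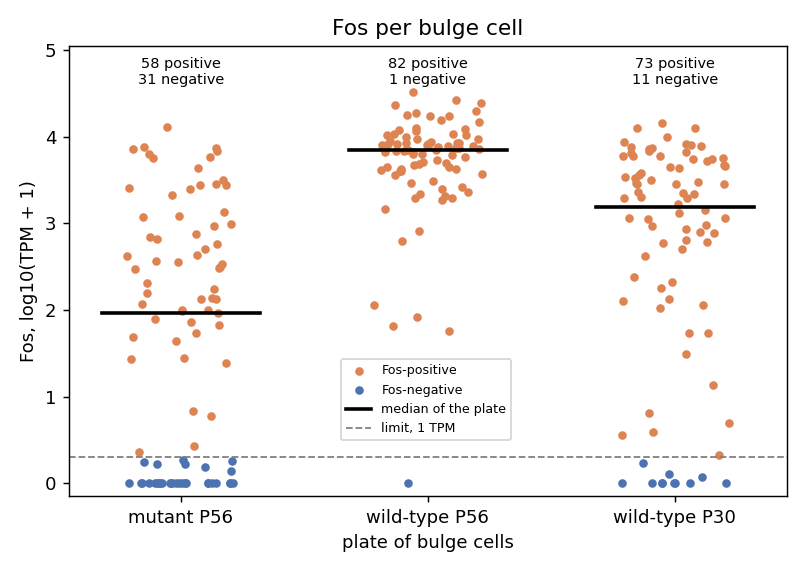
Fos per bulge cell (y axis, log10 of TPM + 1) on the mutant P56, wild-type P56 and wild-type P30 plates (x axis), with Fos-positive cells in orange, Fos-negative cells in blue, the median of each plate as a black line and the limit of 1 TPM dashed. The mutant plate holds 31 Fos-negative cells, the wild-type P56 plate 1 and the wild-type P30 plate 11.

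Differences below are Fos-positive minus Fos-negative means of log2(TPM per 10000 + 1), where each TPM was divided by the total of its cell. On this scale the fold change of a weakly expressed gene comes out too small. Detection means 1 TPM or more, and genes detected in fewer than 10% of both classes were left unmeasured. Of 10342 measured genes, 12 were higher in Fos-positive cells by 1 or more (0.116%) and 6 were lower by 1 or more (0.058%), Fos among the former. The median gene differed by 0.0065. Differences of 1 or more were thus rare. At any size, 53.7% of genes were higher and 46.3% lower, the shares to set beside the counts of list members below.

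The other AP-1 genes went with Fos. All 7 measured members were higher in Fos-positive cells, with a median of 0.67, where 53.7% of all genes were higher at any size and the median was 0.0065. Atf3, a stress-induced AP-1 partner, averaged 1138 TPM in Fos-positive and 3.27 TPM in Fos-negative cells, a difference of 1.45 (SD 2.37 and 0.18). It was detected in 21 of 58 cells (36.2%, exact Clopper-Pearson 95% interval 23.99 to 49.9, counting error only) and in 2 of 31 (6.45%, 0.791 to 21.4). Junb, a Jun protein, ran from 0 to 5586 TPM with a median of 207 in Fos-positive cells and from 0 to 369 with a median of 66.3 in Fos-negative cells, a difference of 1.33 (SD 1.82 and 0.71). The Fos-positive cells covered the whole range of the Fos-negative ones, and 21 of them lay above it. Jun differed by 0.88, Fosl1 by 0.67 and Fosb by 0.64. Fosb reached 1 TPM in 21 of 58 and Fosl1 in 13 of 58 Fos-positive cells, and both did so in 0 of 31 Fos-negative cells (3 counts of 31, taken as the upper limit for a count of 0, are 9.68%). Fosl2 (0.07) and Jund (0.05) differed little. At least 1 of Fosb, Junb, Jun and Atf3 was detected in 26 of 31 Fos-negative cells (83.9%, 66.3 to 94.5), so these cells were not without AP-1 transcripts.

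Genes listed under immediate early feedback and RNA decay mostly moved in the same direction. Of 17 measured feedback and RNA decay genes 16 were higher, with a median of 0.38. Dusp1, the phosphatase that shuts MAP kinases off, averaged 634 against 8.81 TPM, a difference of 1.33, and was detected in 30 of 58 and 4 of 31 cells. Zfp36, which marks AU-rich messages for decay, differed by 1.16, Nfkbia, the inhibitor of NF-kappa-B, by 1.10, Ier3 by 0.89 and Ppp1r15a, which restores translation after stress, by 0.73. Gadd45g was the member on the other side, at 50.4 against 66.1 TPM (-0.18). Of 14 other immediate early factors 13 were higher (median 0.24), led by the orphan receptor Nr4a1 (0.96) and Ier2 (0.87). Heat shock genes, another response to stress, differed less, with 10 of 12 higher and a median of 0.08. Hsp90aa1 was higher by 0.51 and Hspa1a by 0.50, though Hspa1a shares reads with its near-identical copy Hspa1b. The list of MAP kinase feedback genes, among them Dusp6, Spry1 and Etv5, had a median of 0.02 with 6 of 10 higher.

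Gjb2 went against Fos and had the most negative difference of all genes measured. It encodes connexin 26, a subunit of gap junction channels (chr14:57098600-57104702, minus strand). In Fos-positive cells it ran from 0 to 3549 TPM with a median of 1111 and a mean of 1268, and in Fos-negative cells from 0 to 4036 TPM with a median of 2638 and a mean of 2141. The difference was -1.39 (SD 2.04 and 1.17, n = 58 and 31 cells). The upper ranges of both classes overlapped and the Fos-positive class had a tail of Fos-positive cells with little or no Gjb2. It was detected in 44 of 58 Fos-positive cells (75.9%, 62.8 to 86.1) and in 30 of 31 Fos-negative cells (96.8%, 83.3 to 99.9).

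Ucp2 and Gnmt showed the same direction. Ucp2 encodes a carrier of the inner mitochondrial membrane (chr7:100493337-100502020, plus strand). It ran from 0 to 21772 TPM with a median of 8905 in Fos-positive and from 2291 to 22068 TPM with a median of 10008 in Fos-negative cells, a difference of -0.95 (SD 1.69 and 0.62). The medians were close, and 14 of the 58 Fos-positive cells lay below the lowest Fos-negative cell. Gnmt, which uses up methyl groups from S-adenosylmethionine (chr17:46725664-46729168, minus strand), ran from 0 to 6282 TPM with a median of 246 and from 0 to 12721 TPM with a median of 566, a difference of -1.02 (SD 1.93 and 2.12). It was detected in 39 of 58 (67.2%, 53.7 to 78.99) and 25 of 31 cells (80.6%, 62.5 to 92.5). The intervals of the classes overlapped for Gnmt as they did for Gjb2, and cells without Gnmt were found in both classes. Such overlap describes counting error over cells and is no test. By position on the plate, rows A to D gave -0.45 and rows E to H -1.55.

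All 12 genes listed as higher in mutant than in wild-type bulge cells were lower in Fos-positive mutant cells, with a median of -0.92, where 46.3% of all genes were lower. The list was chosen from these same cells, so its direction is not independent evidence. Beside Gjb2, Gnmt and Ucp2, the zinc transporter Slc39a10 differed by -1.13, the matrix proteoglycan Bgn by -0.93, the amino acid transporter subunits Slc7a8 and Slc3a2 by -0.92 each, and Gja1, which encodes connexin 43, by -0.91. Gja1 averaged 1718 against 2647 TPM and was detected in 57 of 58 and 31 of 31 cells. The fatty acid binding protein gene Fabp5 differed by -0.82, Igfbp7 by -0.66, the tropomyosin Tpm1 by -0.62 and the protease inhibitor Timp3 by -0.36. Outside this list, Tm4sf1 (-1.05), the growth factor binding protein Igfbp4 (-1.04), the glutamate transporter Slc1a3 (-0.81) and the cytokine receptor Il11ra1 (-1.03) were among the 12 lowest, the last with near-identical copies that can split its reads. Among the other connexins, Gjb6 was lower too (-0.53), while Gjb5 was higher by 0.22.

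Krt14 was higher in Fos-positive cells. It encodes the basal keratin 14 (chr11:100203162-100207548, minus strand), whose promoter drives the sorting reporter. It ran from 0 to 26594 TPM with a median of 790.4 in Fos-positive and from 0 to 8607 TPM with a median of 355 in Fos-negative cells, a difference of 0.87 (SD 2.80 and 2.25). The shares of cells with Krt14 were close, at 75.9% and 67.7%, and the classes parted at the top, where 10 Fos-positive cells lay above the highest Fos-negative cell. In wells of rows A to D the difference was 1.72 and in rows E to H 0.09, so it was not seen evenly over the plate. The other major keratins of these cells differed little, Krt17 by 0.17, Krt5 by 0.16 and Krt15 by 0.11, and 8 of 11 measured keratins were higher with a median of 0.16.

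Lgals3 was also higher in Fos-positive cells. It encodes galectin-3, a lectin of epithelia and macrophages (chr14:47367751-47386160, plus strand), and was detected in 26 of 58 Fos-positive cells (44.8%, 31.7 to 58.5) and 3 of 31 Fos-negative cells (9.68%, 2.04 to 25.8). Its median was 0 TPM in both classes, its highest cell 5583 and 518 TPM, and its difference 1.18 (SD 1.97 and 0.58). It was at 0 in 32 of the 58 Fos-positive cells, so most of them resembled the Fos-negative cells. Of the 4 genes listed as lower in mutant than in wild-type cells outside the immediate early lists, all were higher in Fos-positive cells (median 0.91), the annexin Anxa8 by 0.96 and Crip1 by 0.29. That list too was chosen from these cells. Galectin, annexin, S100 and thymosin genes as a list were higher in 11 of 15 cases (median 0.29), among them Tmsb4x by 1.05, Anxa1 by 0.81 and Anxa2 by 0.76, while Anxa3 (-0.33), Tmsb10 (-0.27), Anxa5 (-0.25) and Lgals1 (-0.14) lay on the other side.

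**Figure D2:**
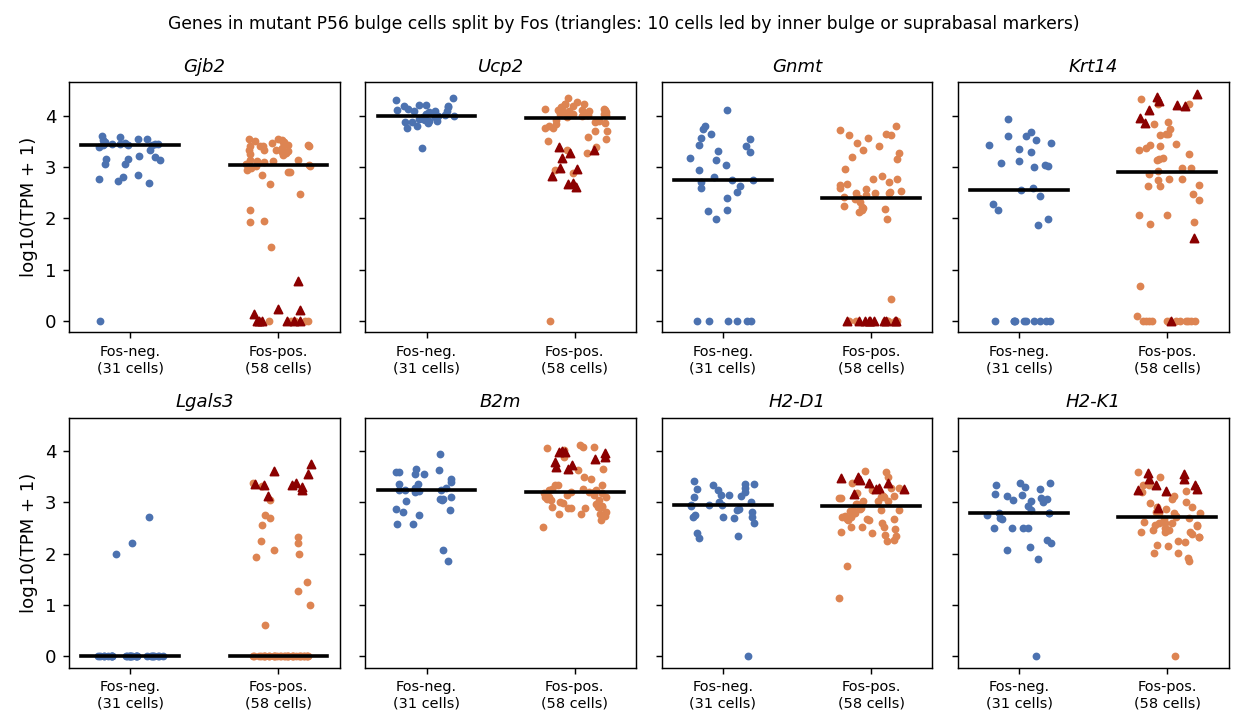
Level per cell (y axis, log10 of TPM + 1) of 8 genes in the 31 Fos-negative and 58 Fos-positive mutant P56 bulge cells (x axis), with medians as black lines and triangles for the 10 cells led by inner bulge or suprabasal markers. The triangles lie at the bottom for Gjb2 and Gnmt, low for Ucp2 and high for Lgals3 and B2m, though the 5 highest cells for B2m are not among them.

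MHC class I genes, whose products present peptides to T cells, went with Fos in part. Of 8 measured chains 7 were higher, with a median of 0.22, and none passed a difference of 1. B2m, the light chain shared by all class I molecules (chr2:122147686-122153083, plus strand), ran from 329.5 to 13225 TPM with a median of 1579.7 in Fos-positive and from 71.97 to 8542 TPM with a median of 1708 in Fos-negative cells, a difference of 0.50 (SD 1.39 and 1.30). The Fos-positive median was thus the lower one while the mean was the higher. The classical heavy chains had nearly the same mean in both classes, H2-D1 with 0.02 (SD 1.203 and 1.09) and H2-K1 with -0.0023 (SD 1.35 and 1.24). H2-Q7 differed by 0.62, H2-T23 by 0.43, H2-T22 by 0.27, H2-Q6 by 0.17 and H2-Q4 by 0.05, and reads of the H2-Q and H2-T families can be split among close copies. Of 13 genes for peptide loading 9 were higher (median 0.06), Psmb9 by 0.36 and Psmb8 by 0.30, while the chaperones Pdia3 (-0.31) and Calr (-0.27) were lower.

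The classes hid a steeper pattern within the Fos-positive cells, seen when cells were placed in 4 bins of Fos. The bins were set after the values were seen. Mean Gjb2 on the log2 scale was 4.33 in the 31 cells under 1 TPM of Fos, 4.29 in 17 cells from 1 to 100, 3.38 in 22 cells from 100 to 1000 and 1.198 in 19 cells at 1000 or more. Ucp2 was at 6.82, 6.71, 6.23 and 4.72, and Gnmt at 3.03, 2.59, 2.42 and 1.02. Cells with little Fos were thus near the Fos-negative cells in these genes, and the change was greatest in the top bin.

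The genes on the other side showed a sharper step. Mean Lgals3 was 0.17, 0.27, 0.56 and 3.22 in the 4 bins, and Krt14 was 2.52, 1.96, 2.93 and 5.22. Atf3 was at 0.04, 0.0026, 0.08 and 4.43, with nearly all of its signal in the top bin, and Junb at 0.74, 0.98, 1.23 and 4.03. For MHC class I the order was not monotonic. H2-K1 was at 2.99, 2.08, 2.70 and 4.13 and B2m at 4.10, 3.85, 4.24 and 5.68, both lowest from 1 to 100 TPM of Fos and highest in the top bin. The median number of genes above 0 was 4158, 4794, 4652.5 and 4365 in the 4 bins.

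**Figure D3:**
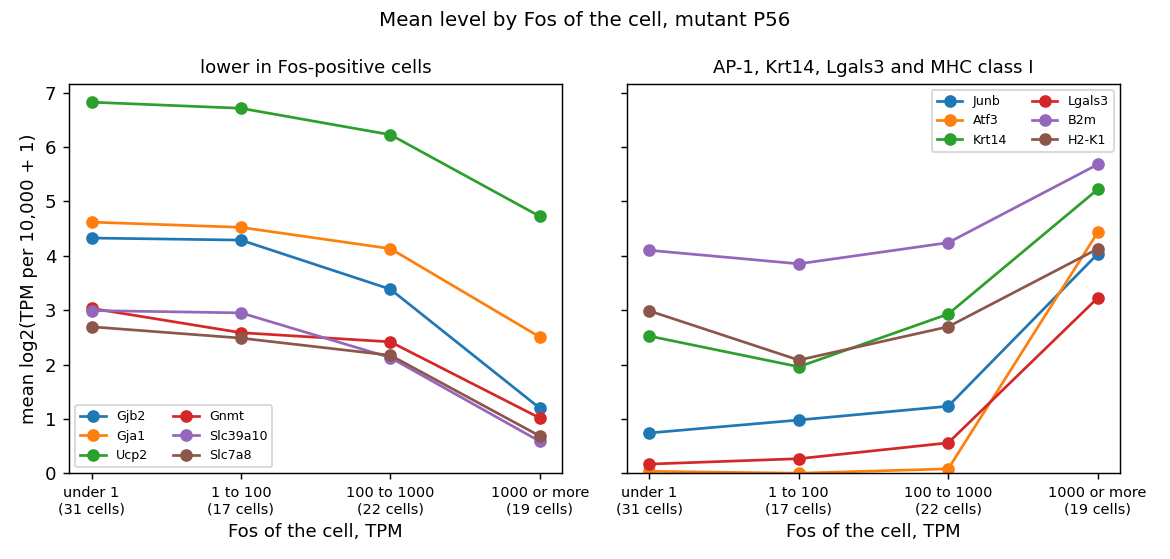
Mean level on the log2(TPM per 10000 + 1) scale (y axis) of 12 genes in mutant P56 bulge cells in 4 bins of their Fos TPM (x axis, with the number of cells). Gjb2 goes from 4.33 to 1.198 and Krt14 goes from 2.52 to 5.22 from the first to the last bin, with the greatest step at 1000 TPM.

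Among the Fos-positive cells, 10 stood apart by cell type markers. Their mean of inner bulge markers (Chit1, Krt6a, Krt80) was above that of outer bulge markers (Col18a1, Krt17, Lhx2, Tcf7l2, Vdr), and in 3 of them so was the mean of suprabasal markers. Of the 31 Fos-negative cells 0 met this rule (upper limit by the same 3 counts, 9.68%). Fos ran from 510.4 to 7248 TPM in the 10 cells, and 9 of them were among the 19 cells at 1000 TPM or more. Of the markers that chose them, the epithelial keratin Krt80 was detected in all 10 and Krt6a in 3, with a median of 0.22 TPM and 1 cell at 6473 TPM. Of the 10, the 9 with Fos of 1000 TPM or more had Krt15 from 4360 to 8255 TPM and a Krt17 median of 134 TPM. The remaining cell had Krt15 at 0 and Krt17 at 18137 TPM. Fos-negative medians were 2903 TPM for Krt15 and 700 TPM for Krt17. The rule compares marker means only and does not settle the type of these cells. In these 10 cells Gnmt was detected in 0 (upper limit by 3 counts, 30%), Gjb2 in 1, and Lgals3 in 10 of 10 with a mean of 2730 TPM. Krt14 averaged 12991 TPM and B2m 7291 TPM.

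The other 10 cells with Fos of 1000 TPM or more were a mixture. In 4 of them Gjb2 was at 0, Gnmt was at most 1.73 TPM, Ucp2 ran from 745 to 2086 TPM, Lgals3 from 493 to 2338 TPM, Krt14 from 7530 to 21258 TPM and B2m from 10324 to 13225 TPM. These 4 cells resembled the 10 led cells in these genes although outer bulge markers led in them. In the other 6, Gjb2 ran from 85.2 to 3157 TPM, Ucp2 from 6820 to 14428 TPM, Lgals3 from 0 to 158 TPM and Krt14 from 0 to 4449 TPM. Those 6 cells lay within the ranges of the 38 outer-led cells with Fos from 1 to 1000 TPM, in which Gjb2 ran from 0 to 3549, Ucp2 from 0 to 21772, Lgals3 from 0 to 558 and Krt14 from 0 to 6924 TPM. The 10 cells were parted by Gjb2 after the values were seen. Atf3 was detected in 9 of the 10 cells, in 9 of the 9 led cells above the same Fos level and in 3 of the 38. Among the 38, 1 cell with Fos at 748 TPM gave the 0 of Gjb2 and Ucp2 and the highest Lgals3 and Krt14, with B2m at 11661 TPM. A Fos-negative cell also had Gjb2 at 0, with Lgals3 at 518 and B2m at 8542 TPM, but Ucp2 at 6261 TPM.

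Without the 10 cells led by inner bulge or suprabasal markers, the differences of Gjb2, Ucp2, Gnmt, Krt14, Lgals3 and B2m between the Fos classes were smaller. Gjb2 then differed by -0.78, Ucp2 by -0.47, Gnmt by -0.61, Krt14 by 0.34 and Lgals3 by 0.45, while 2 genes were higher and 0 were lower by 1 or more. Of the MHC class I genes, B2m differed by 0.14, and H2-D1 and H2-K1 were on the other side at -0.26 and -0.35. The 12 genes higher in the mutant had a median of -0.53, with Timp3 on the other side at 0.11, and the AP-1 genes one of 0.37. With the 39 Fos-positive cells under 1000 TPM alone against the Fos-negative cells, Gjb2 differed by -0.55, Ucp2 by -0.39, Gnmt by -0.54, Krt14 by -0.02, Lgals3 by 0.26 and B2m by -0.03. Fos level and these markers moved together on this plate, and the part of each in the differences was not tested.

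Ranked over all 89 cells, Csrnp1 and Klf11 were the most like Fos among the genes that the naming rule took in. The highest and lowest values given here are of those genes. Spearman's rho with Fos was 0.66 for Csrnp1 and 0.65 for Klf11 and Fosb, 0.62 for Zfp36 and Atf3, and 0.60 for Nfkbia, the cell cycle inhibitor Cdkn1a and Krt80. The lowest values were those of Gjb2 (-0.54), the bulge transcription factor Nfib (-0.53), Arglu1 (-0.53), Slc7a8 (-0.52), Marcks and the glutathione synthesis gene Gclm (-0.50 each), and Cbs and Slc1a3 (-0.49 each). Of 10342 genes 387 (3.74%) reached 0.3 and 250 (2.42%) reached -0.3. The cells share a plate, a fixed total and a differing number of genes detected, which had a rho of 0.02 with Fos over all cells and -0.25 within the Fos-positive cells.

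Within the 58 Fos-positive cells alone, where the limit plays no part, Fos had a rho of -0.60 with Gjb2, -0.50 with Ucp2, -0.41 with Gnmt, 0.53 with Krt14, 0.52 with Lgals3 and 0.52 with B2m. The classical heavy chains, whose class means nearly coincided, had a rho of 0.57 (H2-K1) and 0.46 (H2-D1). The rho was below 0 for all 12 genes higher in the mutant, where 63.3% of genes had a negative value, and for 0 of 8 measured class I chains. B2m, H2-K1 and H2-D1 also had a rho of -0.45, -0.40 and -0.39 with the number of genes detected.

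Relations among the genes asked about were also taken within each Fos class. Ucp2 and Gnmt had a rho of 0.55 among the 31 Fos-negative cells and 0.72 among the 58 Fos-positive cells. Gjb2 and Lgals3 had a rho of -0.47 and -0.64, and Krt14 and Lgals3 one of 0.44 and 0.50, in the same order. Lgals3 was at 0 in 28 of the 31 Fos-negative cells, so its values in that class rest on few cells. Gjb2 and B2m had a rho of 0.20 among Fos-negative and -0.41 among Fos-positive cells, and Gjb2 and Junb one of 0.19 and -0.43. Gjb2 had a rho of 0.13 with Ucp2 and 0.10 with Gnmt among Fos-negative cells, and of 0.58 and 0.59 among Fos-positive cells. The relation of Ucp2 with Gnmt was thus present in Fos-negative cells. Those of Gjb2 with Ucp2 and Gnmt were weak there, and those of Gjb2 with B2m and Junb had the other sign. The pairs were chosen after the values were seen.

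Markers of the outer bulge were lower in Fos-positive cells in 4 of 5 cases (median -0.19), led by the vitamin D receptor Vdr (-0.58), and the 3 inner bulge markers were higher, Chit1 by 0.57 and Krt80 by 0.31. Bulge stem cell genes were balanced, 5 of 10 higher with a median of -0.01, with the R-spondin receptor Lgr5 at -0.39 and Itga6 at 0.12. Suprabasal genes were higher in 4 of 6 measured cases and ran from -0.20 to 1.04, with Dmkn at 1.04 and Serpinb2 at 0.95. Over all genes 53.7% were higher and 46.3% lower, so the suprabasal count lay near that share. BMP targets were lower in 5 of 6 cases but by little (median -0.04, Id1 -0.26). Of 9 measured interferon response genes 9 were higher with a median of 0.09, Ifitm3 by 0.69 and Irf1 by 0.39.

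**Figure D4:**
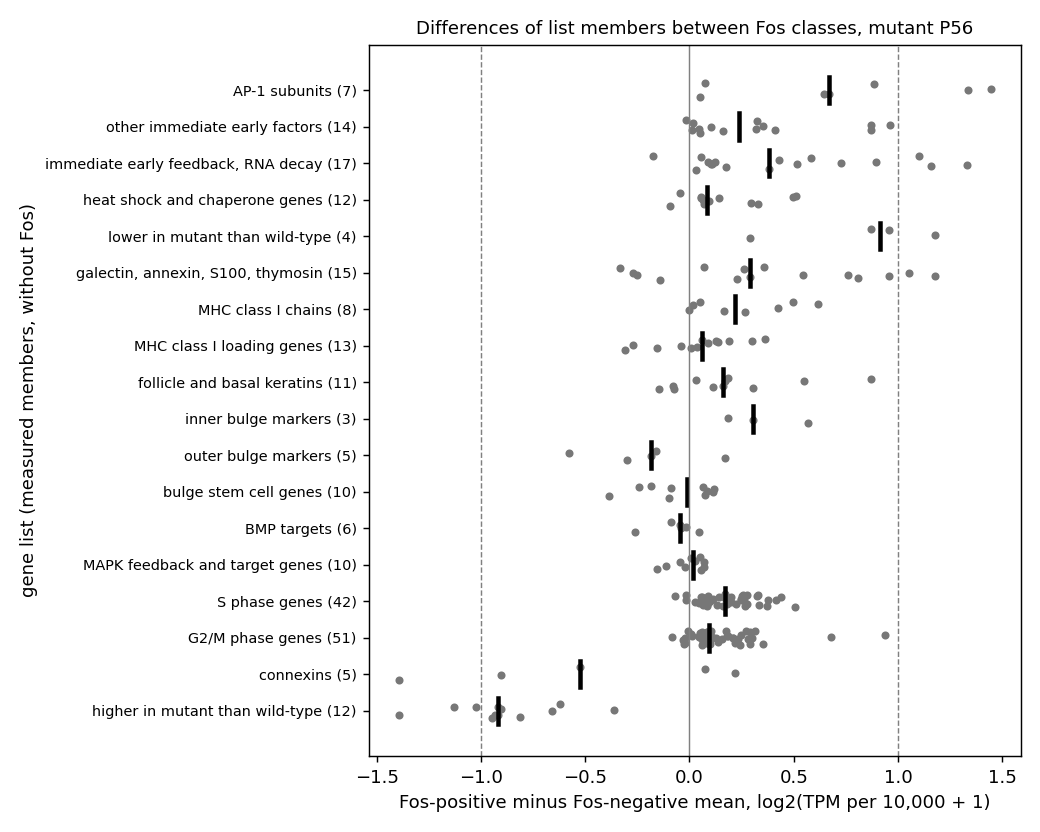
Measured members of 18 gene lists (grey points, 1 gene each, spread vertically at random) by their difference between Fos-positive and Fos-negative mutant cells (x axis, log2 scale), with list medians as black bars and dashed lines at -1 and 1. The 12 genes higher in mutant than wild-type cells all lie below 0 and the 7 AP-1 genes all lie above it.

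Cell cycle genes were slightly higher in Fos-positive cells, 39 of 42 S phase genes (median 0.17) and 45 of 51 measured G2/M genes (median 0.09), where 53.7% of all genes were higher. The G2/M genes were led by the tubulin Tubb4b (0.94) and Cks2 (0.68). Cells with 20 or more of 52 G2/M genes made up 14 of 58 Fos-positive cells (24.1%, 13.9 to 37.2) and 4 of 31 Fos-negative cells (12.9%, 3.63 to 29.8), with overlapping intervals. None of these 14 cells was among the 10 cells led by inner bulge or suprabasal markers. Within the Fos-positive class 46 of 51 G2/M genes had a negative rho with Fos, where 63.3% of all genes did. Cdk1, the kinase of mitotic entry, was detected in 18 of 58 and 9 of 31 cells, and Cd34, the surface protein of the sort, in 25 of 58 and 16 of 31 cells. The histone gene Hist1h2ap, of a multicopy family whose members share reads, was higher by 1.12, and so was the metallothionein Mt2, by 1.09. Without cells with 20 or more G2/M genes Hist1h2ap differed by 0.21 and Mt2 by 0.94. With a Fos limit of 100 TPM they differed by 0.20 and 1.12.

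The same split could not be made in wild-type P56 cells, where 82 of 83 cells were Fos-positive (98.8%, 93.5 to 99.97) with a median of 7051 TPM. The mutant share was 65.2% (54.3 to 74.96), so a Fos-negative class of any size was found on the mutant plate and, with 11 of 84 cells (13.1%, 6.72 to 22.2), on the wild-type P30 plate. Genotype, age and plate cannot be told apart. Over the wild-type P56 cells Fos had a rho of 0.35 with Gjb2, which averaged 9.65 TPM there, -0.23 with Ucp2, -0.01 with Krt14, -0.14 with Lgals3 and -0.15 with B2m. The rho was below 0 for 8 of 9 measured class I chains, where 43.3% of genes were below 0, and for 2 of 11 genes higher in the mutant. Of the genes given here, Ucp2 had the sign of the mutant plate, Gjb2, Lgals3 and B2m had the other sign, and Krt14 was near 0. The 2 plates cover unlike ranges of Fos, with a median over all kept cells of 7039 TPM in wild-type P56 and 90.3 TPM in the mutant. The difference between plates was not tested.

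In wild-type P30 cells, 73 Fos-positive against 11 Fos-negative, Gjb2 and Gja1 had the same direction as in the mutant, while of 6 measured connexins 4 were lower and 2 higher. Gjb2 was detected in 23 of 73 and 10 of 11 cells, with means of 383 and 1291 TPM and a difference of -2.44, and Gja1 averaged 2181 and 6314 TPM with a difference of -2.24. Ucp2 differed by -1.35 and Fabp5 by -3.35, and 9 of 10 measured genes higher in the mutant were lower, where 47.3% of all genes were. The AP-1 genes were higher in 7 of 7 cases, Atf3 by 3.16 and Junb by 1.66, and MHC class I chains in 8 of 9, H2-D1 by 1.76 and B2m by 0.73. Krt14, at 9795 and 6719 TPM (0.08), and Lgals3 (-0.34) did not follow. The 11 Fos-negative P30 cells also differed in keratins, with Krt17 at 11548 against 3218 TPM and Krt15 at 887 against 6470 TPM, which the mutant classes did not, and the part of this in the other values was not tested. At P30, 71 of 8321 genes (0.853%) were higher and 38 (0.457%) lower by 1 or more.

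**Figure D5:**
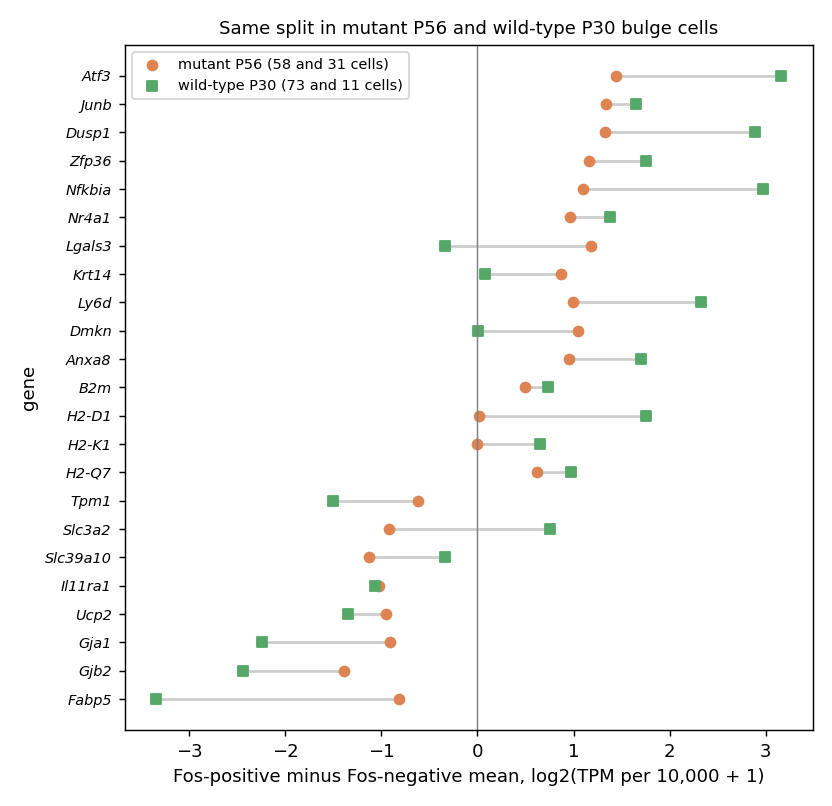
Difference between Fos-positive and Fos-negative bulge cells (x axis, log2 scale of TPM per 10000 + 1) for 23 genes (y axis) on the mutant P56 plate (orange circles, 58 and 31 cells) and the wild-type P30 plate (green squares, 73 and 11 cells). Gjb2, Gja1, Ucp2 and Fabp5 lie below 0 on both plates, and Lgals3 and Slc3a2 lie on opposite sides.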

How the data were processed

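The authors sorted bulge cells by flow cytometry, caught them singly in Fluidigm C1 chambers, left out chambers with no cell or several cells, and made cDNA on the C1 system with the SMARTer Ultra Low RNA kit (the labels name Smart-seq2). Per the study's methods, reads went through STAR (version 2.4.2 per the submitters' processing notes) against GRCm38 (mm10) and RSEM. The deposited values are TPM, 1 column per cell. For 40 symbols listed under several identifiers the mean was taken, leaving 30957. A cell needed 750000 TPM in total, no more than 20% of it mitochondrial, and 2000 to 7000 genes above 0. No doublet caller was run. Totals of kept mutant cells ran from 866328 to 926645 TPM, and TPM keeps no read depth, so intervals cover counting of cells only and not sampling of reads.

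Each TPM was scaled to a cell sum of 10000, a pseudocount of 1 was added and the log2 taken. With 1 plate per group there was no test. Named genes were those asked about, the 12 highest and 12 lowest by difference, the 8 highest and 8 lowest by Spearman's rho with Fos, and members of 24 gene lists. The ranked genes had to be found in 25% of either class, and genes of mitochondria, ribosomal proteins, sex chromosomes, gene models without a name and pseudogenes were passed over. Some genes that the rule or the lists hold are not reported here. Csrnp1 and other ranked genes outside the lists were named by this rule. The members and lists were chosen with earlier results of these data known. Promoters are from RefSeq, the first listed for a gene, and 251 of 319 list genes matched. Coordinates of genes are from GENCODE vM21 on GRCm38. The steps were tested on simulated data. Software was pandas 2.3.3, NumPy 2.4.6, SciPy 1.17.1 and matplotlib 3.10.9 under Python 3.11.15. The 15 alternatives planned and 2 added after the data were seen are given in the closing section.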

Additional observations from a re-analysis of the deposited data

Results flagged for a closer look

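Lgals3 and the amino acid transporter subunit Slc3a2 had opposite signs on the mutant P56 and the wild-type P30 plates when cells were split by Fos in the same way. Lgals3 was higher in Fos-positive cells of the mutant plate by 1.18 and lower in those of the P30 plate by 0.34, that is at -0.34. Slc3a2 was at -0.92 on the mutant plate and 0.75 on the P30 plate. These are differences of class means over cells of 1 plate each, with 11 Fos-negative cells at P30. The difference between the plates was not tested. Only genes with at least 0.3 in size on both plates were considered, a limit set after the values were seen.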

How the results depend on the processing

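The direction of Gjb2, Ucp2, Gnmt and Lgals3 held under all 17 alternatives, and that of Krt14 and B2m under 15. H2-D1 kept its sign in 12 and H2-K1 in 9. Not all alternatives could change these signs. Those that changed only the gene filter left the values as they were, and centring on the median gene shifted each by 0.0065. No paired analysis was possible because the 2 classes are cells of 1 plate and no number pairs them. Depth is unknown in TPM, so genes at 0 may be missed transcripts.

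The counts of genes past a difference of 1 (12 higher, 6 lower) moved most. With Fos limits of 10 and 100 TPM, 11 and 12 were lower, and at 100 TPM 28 were higher. A split at the median Fos gave 24 and 12, and one at the median of other immediate early genes 30 and 1, where Hist1h2ap (-0.97), Tm4sf1 (0.13) and Crip1 (-0.32) changed sign and Gjb2 (-0.60), Gnmt (-0.61), Slc39a10 (-0.17) and the median of the genes higher in the mutant (-0.53) were smaller. Rows A to D gave 25 and 16, rows E to H 6 and 2, and all labelled cells 2 lower. On log2(TPM + 1), where the median gene differed by 0.13, 824 and 418 passed, Gjb2 was at -2.85, Lgals3 at 3.20, the genes higher in the mutant at a median of -1.86, those lower in it at 1.82, AP-1 at 2.38 and connexins at -1.11. A pseudocount of 0.1 gave 129 and 74, Lgals3 2.15, AP-1 1.54 and connexins -1.05. The AP-1 median was 0.95 at a limit of 100 TPM, 0.86 at the median Fos and 0.85 in cells matched on genes detected.

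Without cells led by inner bulge or suprabasal markers, 2 were higher and 0 lower, Lgals3 was at 0.45 and AP-1 at 0.37. The 2 alternatives added after the data were seen kept Fos-positive cells under 1000 TPM, with and without those led cells. Both gave 2 higher and 0 lower and AP-1 medians of 0.030 and 0.031, without Atf3 and Fosl1, which fell under the detection limit. Lgals3 was at 0.26 and 0.15, the MHC class I median at -0.019 and -0.073, and the keratin median at -0.018 and -0.040, and Ucp2 was at -0.29 in the second. The cause of these shifts was not tested.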
